A study of Rattus norvegicus with 12 samples.

Results

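The 10 genes described here are those a fibroblast switches on when it turns into the activated, scar-building cell of an injured heart: Postn, Tnc, Fn1, Spp1, Thbs4, Comp, Ltbp2, Cthrc1, Lox and Fap. They were taken by symbol from the table of 34700 genes, and all 10 were found, each on 1 row. The rule names symbols and uses no value, but the set was drawn up with earlier results of these data known. After an infarct, resting fibroblasts near the dead muscle become activated, lay down a provisional matrix and then a collagen scar, and later fall back toward a quieter matrix-keeping state. Matricellular proteins such as periostin and tenascin-C are secreted into that matrix and steer cells more than they bear load, while enzymes such as lysyl oxidase crosslink the collagen.

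Male Sprague-Dawley rats were operated on at 8 weeks of age. The left anterior descending coronary artery was ligated in the HF, HFE and BAIBA groups and was only threaded in the Sham group. Rats were grouped by ejection fraction 4 weeks after surgery. HF rats stayed sedentary, and HFE rats had 8 weeks of treadmill running (60 min daily, 5 days weekly). BAIBA rats received β-aminoisobutyric acid, a small molecule released by working muscle, at 75 mg/kg/day by gavage for 8 weeks. The paper describes an exercise study and a BAIBA study, each with Sham and HF groups. In the BAIBA study, Sham and HF rats were given water by gavage. Which study the Sham and HF rats used here came from is not given in the sources. Hearts were collected 12 weeks after surgery, and each group gave 3 rats, labelled as separate samples, 12 in all. RNA came from the front wall of the left ventricle. The methods name tissue around the infarct for the BAIBA group, while another passage names it for HF rats too. Treatment and the place of sampling therefore cannot be told apart in comparisons with BAIBA. How much scar a sequenced piece held is not given in the sources used here. From stained sections of the left ventricle, the paper describes large collagen deposits in HF rats, and less collagen with exercise or with BAIBA.

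Depth ran from 14812541 to 19732588 counts per rat. Cardiomyocyte markers (Myh6, Tnnt2, Tnni3, Actn2, Ryr2 and Pln) summed to between 12370 and 15868 FPKM (counts scaled to gene length and library size) in every rat, so the label of heart muscle held. Markers of resting fibroblasts summed to between 672 and 1194 FPKM, and the 10 scar genes together to between 11.3 and 91.8 FPKM. The 2 highest sums came from rat 2 of the Sham group (91.8) and rat 1 of the BAIBA group (80.8), and the other 10 rats lay between 11.3 and 26.8. Both rats stand apart in what follows, and log2 fold changes of the 10 genes that rest on either are given with and without it. Comparisons of other gene lists are given with all rats only. These are bulk samples, so fewer cells of a type and less RNA per cell cannot be told apart.

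Levels between genes were compared per length, in FPKM, by the median of the 12 rats. Fn1 was the highest at 5.26 FPKM, followed by Fap at 3.56, Postn at 3.36, Spp1 at 2.15 and Lox at 1.60. Thbs4 followed at 0.936, Ltbp2 at 0.803, Comp at 0.306, Cthrc1 at 0.261 and Tnc at 0.201. The ranges over the 12 rats overlapped for each neighbouring pair in this order. Cthrc1 rested on 2 to 22 counts per rat, Comp on 3 to 49 and Tnc on 4 to 88, so counting error alone is wide for these 3 genes.

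RefSeq promoter windows (rat build GRCr8) were found for 7 of the 10 genes: Thbs4, Postn, Fap, Tnc, Ltbp2, Spp1 and Comp. The 250 bases before the annotated start are shown for Thbs4 and Comp, the thrombospondin-family members among the 10, because both were high in the same 3 rats and both windows lie wholly outside the RefSeq gene. Capitals mark the letters GGAATG on either strand, the core bound by TEAD factors. The Thbs4 window is chr2:25760346-25760595 and the Comp window chr16:19089549-19089798, both on the minus strand and written 5′ to 3′.
Thbs4: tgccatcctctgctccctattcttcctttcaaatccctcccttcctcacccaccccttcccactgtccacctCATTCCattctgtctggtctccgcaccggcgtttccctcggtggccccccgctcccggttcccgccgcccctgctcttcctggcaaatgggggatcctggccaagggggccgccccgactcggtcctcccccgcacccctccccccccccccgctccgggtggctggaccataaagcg
Comp: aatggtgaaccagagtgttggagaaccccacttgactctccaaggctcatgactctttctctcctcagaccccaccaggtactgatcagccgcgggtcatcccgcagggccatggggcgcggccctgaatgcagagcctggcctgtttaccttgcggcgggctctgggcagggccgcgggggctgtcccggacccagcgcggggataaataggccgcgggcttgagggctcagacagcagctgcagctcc

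GGAATG was in 1 of the 7 windows (Thbs4) and in 12.1% of all 33469 windows in the table. The TATA box letters TATAAA, read on the plus strand of the gene, were in 3 of 7 (Postn, Tnc and Spp1) against 8.06% of all windows. Relative to the annotated start, the match began at -44 in Postn, -208 in Tnc and -204 in Spp1. The E-box CANNTG, on either strand, was in 6 of 7 (all but Ltbp2) against 65.5%, and the AP-1 site TGANTCA, on either strand, was in 0 of 7 against 6.34%. These matches describe letters in a window and nothing more. Overlaps between motifs were not removed.

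Postn (ENSRNOG00000012660) encodes periostin, a matricellular protein used as the classic mark of the activated cardiac fibroblast. Its level was 18.1, 12.8 and 10.9 CPM (counts scaled to library size) in Sham rats 1 to 3 and 4.99, 6.56 and 12.5 CPM in HF rats. In HFE rats it was 13.2, 2.70 and 3.10 CPM, and in BAIBA rats 40.3, 2.50 and 10.5 CPM. BAIBA rat 1 was the highest of the 12 and BAIBA rat 2 the lowest, so the BAIBA group alone spanned the whole range, and all groups overlapped.

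Tnc (ENSRNOG00000058645) encodes tenascin-C, which loosens cell contacts in healing tissue. It was at 1.90, 4.60 and 1.97 CPM in Sham rats, 1.89, 1.66 and 1.32 CPM in HF rats and 0.466, 0.415 and 0.317 CPM in HFE rats. In BAIBA rats it was at 4.91, 0.257 and 0.844 CPM. The Sham, HF and HFE groups formed 3 steps without overlap, from high to low, though the lowest Sham rat (1.90) and the highest HF rat (1.89) nearly met, and the BAIBA group reached from below the lowest HFE rat to above the highest Sham rat.

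Fn1 (ENSRNOG00000014288) encodes fibronectin, the first scaffold of the wound matrix. Its level was 47.4, 76.7 and 58.0 CPM in Sham rats, 32.2, 36.3 and 50.05 CPM in HF rats, 31.2, 26.9 and 25.2 CPM in HFE rats and 187, 42.9 and 65.9 CPM in BAIBA rats. Every HFE rat was below every rat of the other 3 groups. BAIBA rat 1 was 2.44 times the next highest of the 12.

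Spp1 (ENSRNOG00000043451) encodes osteopontin, a secreted protein made by macrophages as well as by activated fibroblasts. It was at 2.71, 108 and 3.74 CPM in Sham rats and at 0.287, 6.32 and 0.688 CPM in HF rats. HFE rats had 0.466, 2.21 and 0.950 CPM, and BAIBA rats 25.9, 5.07 and 9.89 CPM. Sham rat 2 was 40.0 times the median of the other 11 rats, with 1673 counts against 5 to 465 in the others. All 3 BAIBA rats were above all 3 HFE rats.

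Thbs4 (ENSRNOG00000012471) encodes thrombospondin-4, a matrix protein of tendon and strained muscle. It was at 3.69, 1.62 and 13.1 CPM in Sham rats, 0.631, 4.48 and 6.30 CPM in HF rats, 10.2, 0.900 and 1.65 CPM in HFE rats and 18.3, 0.321 and 2.35 CPM in BAIBA rats. Every group overlapped every other, and the highest BAIBA rat was 57.2 times the lowest. Comp (ENSRNOG00000048472), cartilage oligomeric matrix protein, organises collagen fibrils. Its level was 0.462, 0.194 and 2.56 CPM in Sham rats, 0.631, 0.859 and 0.900 CPM in HF rats, 2.13, 0.900 and 0.886 CPM in HFE rats and 2.73, 0.898 and 0.965 CPM in BAIBA rats. The same 3 rats, Sham 3, HFE 1 and BAIBA 1, were the highest for both genes.

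Ltbp2 (ENSRNOG00000012094) encodes a latent TGF-beta binding protein that sits on fibrillin microfibrils. It was at 4.10, 4.08 and 15.5 CPM in Sham rats, 2.29, 7.12 and 9.37 CPM in HF rats, 8.92, 2.08 and 3.61 CPM in HFE rats and 47.9, 2.37 and 6.57 CPM in BAIBA rats. BAIBA rat 1 was 11.7 times the median of the other 11 rats, the largest such ratio of that rat among the 10 genes.

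Cthrc1 (ENSRNOG00000004578) encodes a secreted protein of collagen-making fibroblasts in scars. It was at 0.519, 0.324 and 0.263 CPM in Sham rats, 0.229, 0.368 and 0.212 CPM in HF rats, 0.666, 0.138 and 0.950 CPM in HFE rats and 1.23, 0.257 and 0.302 CPM in BAIBA rats. All groups overlapped. Lox (ENSRNOG00000014426), lysyl oxidase, was at 7.96, 7.33 and 5.25 CPM in Sham rats, 8.31, 13.1 and 2.33 CPM in HF rats, 10.2, 10.7 and 4.75 CPM in HFE rats and 21.0, 5.64 and 5.55 CPM in BAIBA rats. Its lowest and second-highest rats were both in the HF group.

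Fap (ENSRNOG00000005679) encodes fibroblast activation protein, a cell-surface protease. It was at 7.04, 4.28 and 10.6 CPM in Sham rats, 5.05, 10.8 and 6.99 CPM in HF rats, 11.5, 9.21 and 9.24 CPM in HFE rats and 7.86, 8.15 and 7.48 CPM in BAIBA rats. Fap had the narrowest range of the 10, 2.69-fold from lowest to highest. It was the only member besides Spp1 that was not highest in BAIBA rat 1.

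**Figure D1:**
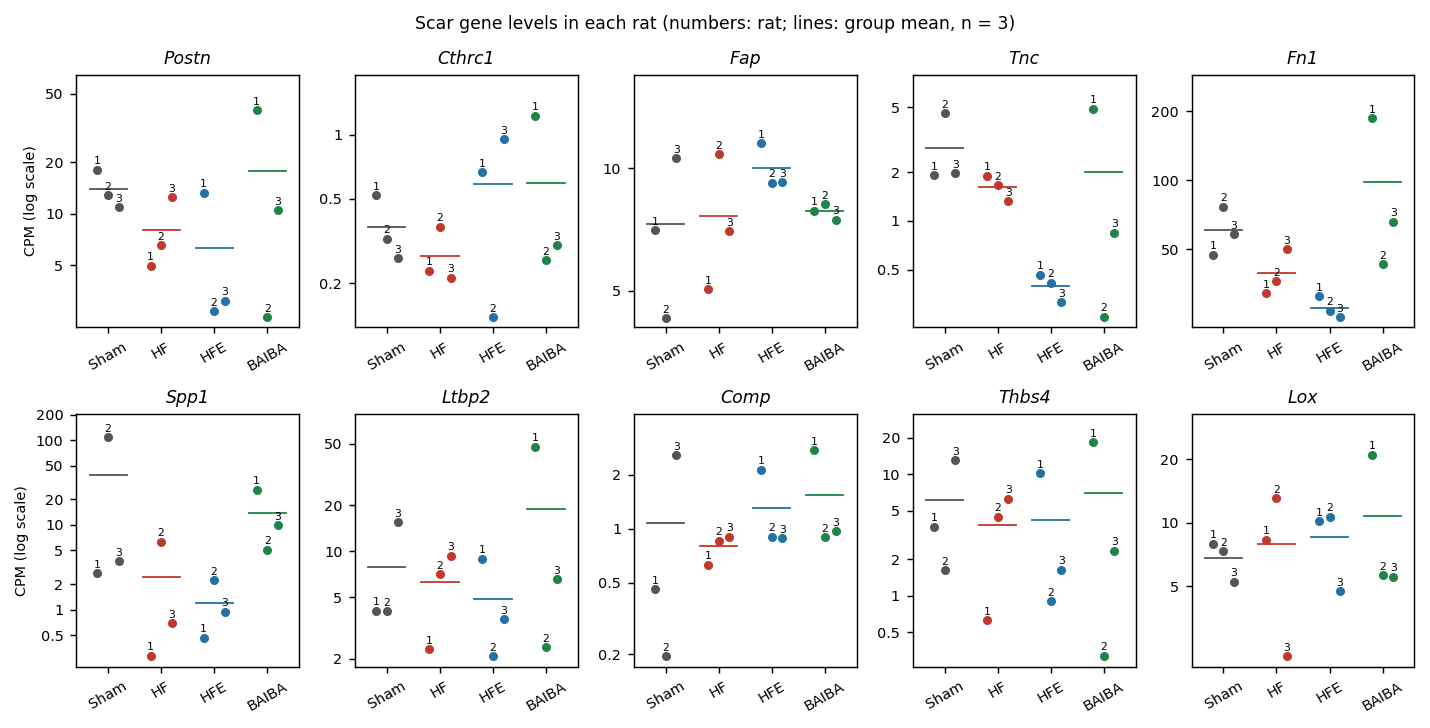
Level of each scar gene in each rat, in CPM on a log axis, by group; each point is a rat with its number and each line a group mean of 3 rats. BAIBA rat 1 is the highest of the 12 for 8 of the 10 genes, Sham rat 2 is far above the rest for Spp1, and the HFE rats sit below the HF and Sham rats for Tnc and Fn1.

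The first question was whether the ligated hearts held more of these transcripts than Sham hearts. With all 9 ligated rats against the 3 Sham rats, 5 of the 10 genes had a positive and 5 a negative log2 fold change, and the median of the 10 was -0.12 against 0.01 over all 15617 genes tested. The lowest values were those of Spp1, at -3.49 ± 1.06 (SE; edgeR quasi-likelihood adjusted p = 0.740), and Tnc, at -1.36 ± 0.60 (adjusted p = 0.779). The highest were Lox at 0.39 ± 0.54 and Cthrc1 at 0.29 ± 0.63. None of the 10 was called, a call being an adjusted p under 0.05 over all genes tested with a log2 fold change over 1 in size, and the share called over all genes was 0%. At an unadjusted p under 0.05 there were 0 higher and 2 lower (Spp1 and Tnc), where 2.84% of all genes were higher and 3.52% lower, and DESeq2 called 0 members and 0.064% of all genes. Adding the fold limit to the unadjusted p left 2 members and 1.05% of all genes. No member's ligated rats were all above or all below the Sham rats, where 0.538% of all genes were all higher and 0.512% all lower. Without Sham rat 2 the log2 fold change of Spp1 was 0.08 ± 1.00 and that of Tnc -0.82 ± 0.70. Without BAIBA rat 1, 2 of the 10 were positive, with a median of -0.61. With both rats left out, a choice made after seeing the data, 1 of 10 was positive and the median was -0.51. Atrial markers (Myl7, Myl4, Sln and Nppa) were all 4 negative in the same fit, with a median of -2.33 and 3 lower at an unadjusted p under 0.05. Myl7 was at -2.94 ± 1.09 (SE; edgeR adjusted p = 0.757), Sln at -2.41 ± 0.99 (adjusted p = 0.779) and Myl4 at -2.25 ± 0.88 (adjusted p = 0.766). Their summed FPKM ran from 29.5 to 497 in Sham, 82.6 to 573 in HF, 30.8 to 208 in HFE and 13.9 to 263 in BAIBA, so the groups overlapped. The part of atrial tissue in the scar gene values was not tested.

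No member passed the test between HF and Sham hearts. Of the 9 that passed the filter on low counts (all but Cthrc1), 2 had a positive and 7 a negative log2 fold change, with a median of -0.62 against 0.01 over the 14957 genes tested. Fn1 was at -0.62 ± 0.22 (SE, n = 3 and 3; edgeR adjusted p = 0.805), Postn at -0.80 ± 0.37 (adjusted p = 0.806) and Tnc at -0.80 ± 0.41 (adjusted p = 0.808). Spp1 was at -3.99 ± 1.90 (edgeR adjusted p = 0.808), and at -0.42 ± 1.24 without Sham rat 2. Leaving out that rat put Tnc at -0.26 ± 0.34, Fn1 at -0.42 ± 0.21 and Postn at -0.85 ± 0.44. The other 5 lay between -0.68 (Thbs4) and 0.20 (Lox), with Ltbp2 at -0.33, Comp at -0.41 and Fap at 0.06. edgeR called 0 of the 9 (0% of all genes), and 1 member was lower at an unadjusted p under 0.05 (Fn1), where 2.47% of all genes were higher and 3.53% lower. DESeq2 called 0 members and 0.16% of all genes. Tnc alone was lower in every HF rat than in every Sham rat, as were 6.55% of all genes, and 0 members were higher throughout, against 5.25%.

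In HFE hearts Tnc and Fn1 had the clearest separation from Sham. Tnc had a mean of 0.399 ± 0.0760 CPM (SD, n = 3) in HFE rats against 2.83 ± 1.54 in Sham rats, a log2 fold change of -2.79 ± 0.47 (SE; edgeR adjusted p = 0.129). Fn1 had a mean of 27.8 ± 3.10 CPM in HFE rats against 60.7 ± 14.8 in Sham rats, at -1.12 ± 0.18 (edgeR adjusted p = 0.129). Spp1 was at -4.97 ± 2.01 (edgeR adjusted p = 0.468), and at -1.41 ± 0.57 without Sham rat 2. Leaving out that rat put Tnc at -2.26 ± 0.42 (edgeR adjusted p = 0.286) and Fn1 at -0.93 ± 0.13 (adjusted p = 0.286). The other 6 tested lay between -1.13 (Postn) and 0.46 (Fap), with Ltbp2 at -0.69, Thbs4 at -0.52, Comp at 0.30 and Lox at 0.32. edgeR called 0 of the 9 tested (0% of all genes), and 2 were lower at an unadjusted p under 0.05 (Tnc and Fn1), where 6.04% of all genes were higher and 5.15% lower. DESeq2 called both, with adjusted p-values of 0.001265 for Tnc and 5.845e-06 for Fn1, among 68 genes or 0.459% of all tested. Requiring the fold limit together with that unadjusted p left 2 members and 1.72% of all genes. Tnc, Fn1 and Spp1 were lower in every HFE rat than in every Sham rat, 3 of 10, where 8.24% of all genes were lower and 9.5% higher in that way. The median of the 9 was -0.69 against 0.01 over 14804 genes. Macrophage markers were read in the same fit, where 9 of 9 had a negative log2 fold change with a median of -0.73, 7 of them at an unadjusted p under 0.05, and 6 were lower in every HFE rat. The lowest adjusted p among them was that of C1qa, at -0.78 ± 0.18 (SE; edgeR adjusted p = 0.242), and 0 of the 9 were called. The part of macrophages in the Tnc, Fn1 and Spp1 values was not tested.

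Exercise was also set against sedentary HF. Tnc was lower in every HFE rat than in every HF rat, with a log2 fold change of -2.01 ± 0.37 (SE, n = 3 and 3; edgeR adjusted p = 0.613), and so was Fn1, at -0.51 ± 0.17 (adjusted p = 0.627). The share of all genes lower without overlap was 6.16%, and higher 8.26%. These 2 were also lower at an unadjusted p under 0.05, where 4.34% of all genes were higher and 3.29% lower. edgeR called 0 members (0% of all genes) and DESeq2 called 0 members (0.134%). Macrophage markers were again all 9 negative, with a median of -0.48 and 2 lower at an unadjusted p under 0.05. The other 7 tested lay between -0.998 ± 1.17 (Spp1) and 0.70 ± 0.46 (Comp), with Postn at -0.34, Ltbp2 at -0.36, Fap at 0.39, Thbs4 at 0.15 and Lox at 0.11. Their median with Tnc and Fn1 was -0.34 against -0.01 over 14938 genes. The HF and HFE comparisons with Sham share the Sham rats, so their values for Tnc and Fn1 are not independent of each other.

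BAIBA hearts had a mean above HF hearts for each of the 9 genes tested, with a median log2 fold change of 0.94 against -0.01 over 15039 genes. Spp1 was at 2.51 ± 1.21 (SE, n = 3 and 3; edgeR adjusted p = 0.851), Ltbp2 at 1.60 ± 1.19 (adjusted p = 0.862), Fn1 at 1.32 ± 0.58 (adjusted p = 0.851) and Postn at 1.15 ± 0.98 (adjusted p = 0.882). Comp was at 0.94, Thbs4 at 0.89, Lox at 0.45, Tnc at 0.32 and Fap at 0.04. edgeR called 0 (0% of all genes) and DESeq2 called 0 (0.18%). At an unadjusted p under 0.05 there were 0 members, where 2.81% of all genes were higher and 2.73% lower, and 0 were higher or lower in every rat, where 6.01% of all genes were higher and 5.37% lower. Without BAIBA rat 1 only 4 of the 9 were positive and the median was -0.30. Postn was then at -0.30, Ltbp2 at -0.48, Lox at -0.49, Thbs4 at -1.49 and Tnc at -1.54, while Spp1 was at 1.63, Fn1 at 0.47, Comp at 0.23 and Fap at 0.04.

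Between BAIBA and HFE hearts, Spp1 and Fn1 were the members that separated upward. Spp1 had a mean of 13.6 ± 10.9 CPM (SD, n = 3) in BAIBA rats against 1.21 ± 0.903 in HFE rats, a log2 fold change of 3.50 ± 0.81 (SE; edgeR adjusted p = 0.244), and 2.62 ± 0.60 without BAIBA rat 1 (adjusted p = 0.196). Fn1 was at 1.83 ± 0.59 (edgeR adjusted p = 0.431), and 0.97 ± 0.19 without that rat. Both were higher in every BAIBA rat than in every HFE rat, where 7.13% of all genes were. Fap was lower in every BAIBA rat, at -0.35 ± 0.16 (edgeR adjusted p = 0.542), where 8.37% of all genes were. Ltbp2 was at 1.97, Postn at 1.49, Thbs4 at 0.74, Lox at 0.34, Comp at 0.24 and Cthrc1 at 0.04. Without BAIBA rat 1 Ltbp2 was at -0.12, Thbs4 at -1.65, Postn at 0.03, Lox at -0.61, Comp at -0.49 and Cthrc1 at -1.06. In that fit 3 of the 9 were positive and the median was -0.36, against 0.74 with all rats. Tnc did not pass the filter here. edgeR called 0 of 9 (0.0808% of 14844 genes), and 2 were higher at an unadjusted p under 0.05, where 4.68% of all genes were higher and 4.88% lower. DESeq2 called Spp1 (adjusted p = 0.007713) and no other member, among 155 genes or 1.04% of all tested. With the replicate number as a block, edgeR called 32 genes in place of 12 and still 0 members. Macrophage markers were all 9 positive in the unblocked fit, with a median of 1.13 and 5 higher at an unadjusted p under 0.05, and Cd163, with the lowest adjusted p of them, was at 1.25 ± 0.19 (SE; edgeR adjusted p = 0.0986). Resting fibroblast markers were all 7 positive, with a median of 0.60 and 4 higher at that p, and none of these 16 was called. These list fits were not repeated without BAIBA rat 1. The macrophage sum was 815 FPKM in that rat and 90.3 and 115 FPKM in BAIBA rats 2 and 3. The resting fibroblast sum was 1128 FPKM there and 1002 and 1071 FPKM in the same rats 2 and 3. The part of macrophages and resting fibroblasts in the Spp1 and Fn1 values was not tested.

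BAIBA hearts and Sham hearts overlapped for every member. The log2 fold changes of the 9 tested ran from -1.47 ± 1.61 (Spp1) to 1.29 ± 1.28 (Ltbp2), with a median of 0.36 against 0.00 over all 14920 genes. Postn was at 0.36, Tnc at -0.46, Fn1 at 0.71, Lox at 0.66, Comp at 0.54, Thbs4 at 0.22 and Fap at 0.11, and the lowest edgeR adjusted p was 0.852. edgeR called 0 (0.0402% of all genes) and DESeq2 called 0 (0.462%). At an unadjusted p under 0.05 there were 0 members, where 4.13% of all genes were higher and 3.28% lower, and 0 were higher or lower in every rat, against 6.52% and 6.17% of all genes. Without BAIBA rat 1, 1 of the 9 (Fap) was positive and the median was -0.81. Without Sham rat 2, Spp1 was at 2.09 ± 0.76 and Tnc at 0.07 ± 1.08, and 7 of the 9 were positive with a median of 0.30.

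**Figure D2:**
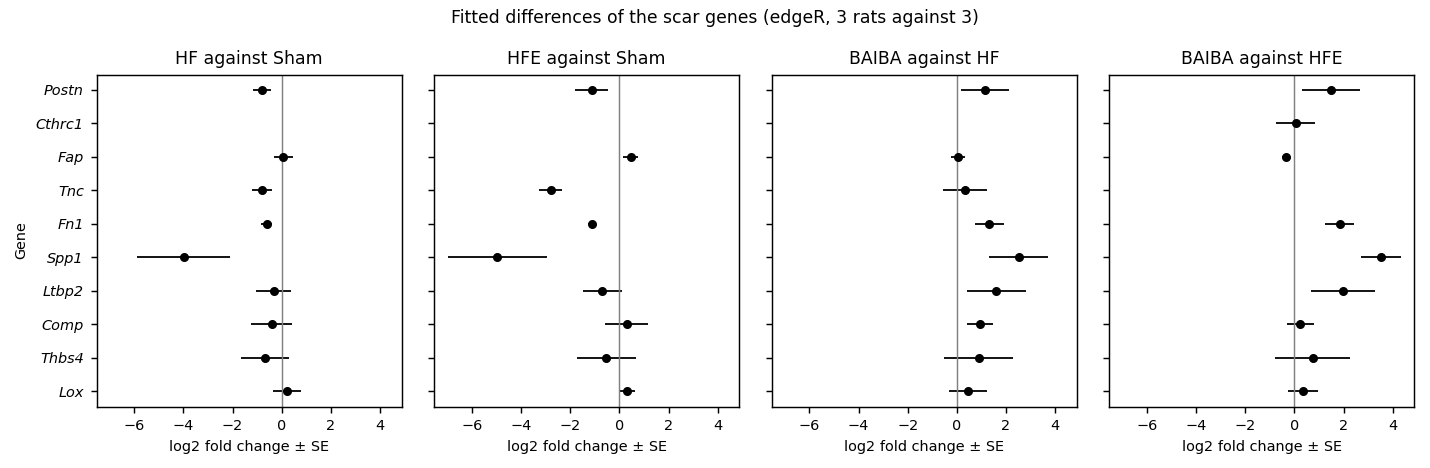
Fitted log2 fold change of each scar gene with its standard error in 4 comparisons of 3 rats against 3; genes that did not pass the filter have no point. Tnc and Fn1 lie below 0 in HFE against Sham with short bars, Spp1 has the widest bars in HF and HFE against Sham, and every point of BAIBA against HF lies above 0.

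Differences between rats of 1 group were also large for some of the members. Between the highest and the lowest rat a 4-fold range or more was found for 3 of the 10 genes in Sham, 4 in HF, 5 in HFE and 7 in BAIBA. Over the 15617 genes that passed the filter, the shares were 3.996%, 6.42%, 4.76% and 5.44%. These shares are not matched for level, and low counts widen the ranges of Cthrc1, Comp and Tnc. Rat 1 was the highest of the BAIBA group for 9 of the 10 genes. A scar score, the mean over the 10 genes of each gene's standardised log2 CPM, was 1.63 in BAIBA rat 1 and 0.48 or lower in every other rat. That rat ranked first with any single gene left out. Sham rat 3 was next at 0.48, and HF rat 1 was the lowest at -0.70. By group the score was 0.16 ± 0.28 (SD, n = 3) in Sham, -0.24 ± 0.47 in HF, -0.24 ± 0.48 in HFE and 0.32 ± 1.18 in BAIBA.

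**Figure D3:**
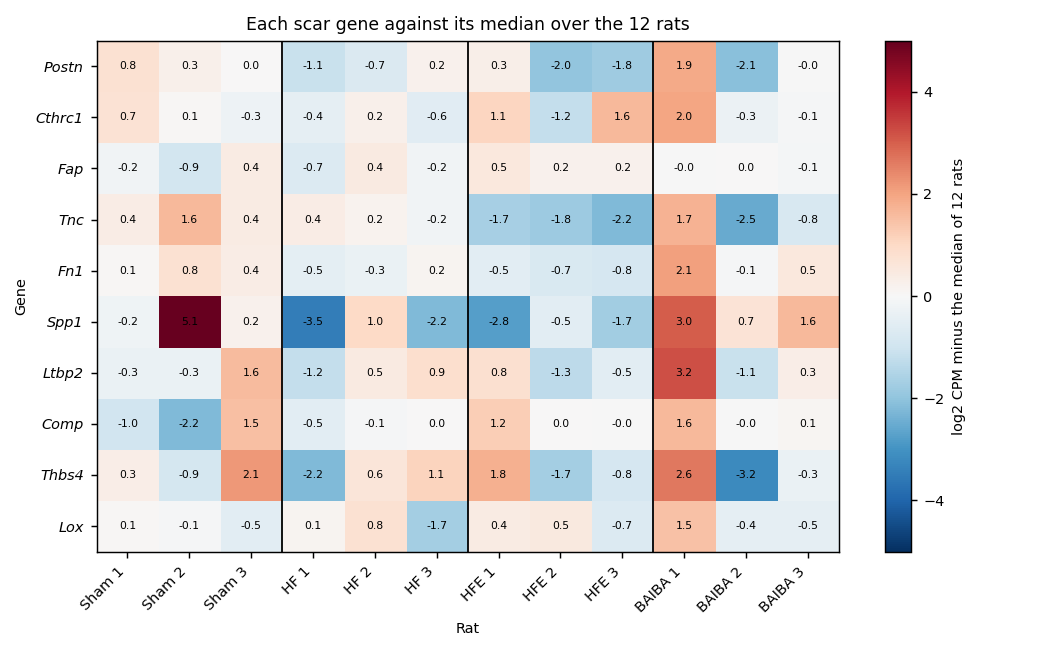
Difference of each gene's log2 CPM from its median over the 12 rats, with rats in columns by group and genes in rows. The column of BAIBA rat 1 is red for all genes but Fap, BAIBA rat 2 is blue for Postn, Tnc, Ltbp2 and Thbs4, and Sham rat 2 is red for Spp1 and Tnc but blue for Comp.

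The genes did not all follow 1 pattern across rats. Of the 45 pairs of members, 39 had a positive Pearson r of log2 CPM over the 12 rats, with a median of 0.34, and 14 were over 0.5. Without BAIBA rat 1 the median was 0.15, and 10 were over 0.5. The closest pair was Ltbp2 and Thbs4, with r = 0.91 over 12 rats and 0.93 over the 11 without that rat. Postn had r = 0.80 with both Ltbp2 and Thbs4, 0.67 and 0.73 without that rat. Fn1 and Spp1 had r = 0.71 with and 0.71 without it, and Fap had r = -0.50 with Tnc and 0.72 with Comp. These values describe 12 hearts that share groups and libraries, and carry no test.

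**Figure D4:**
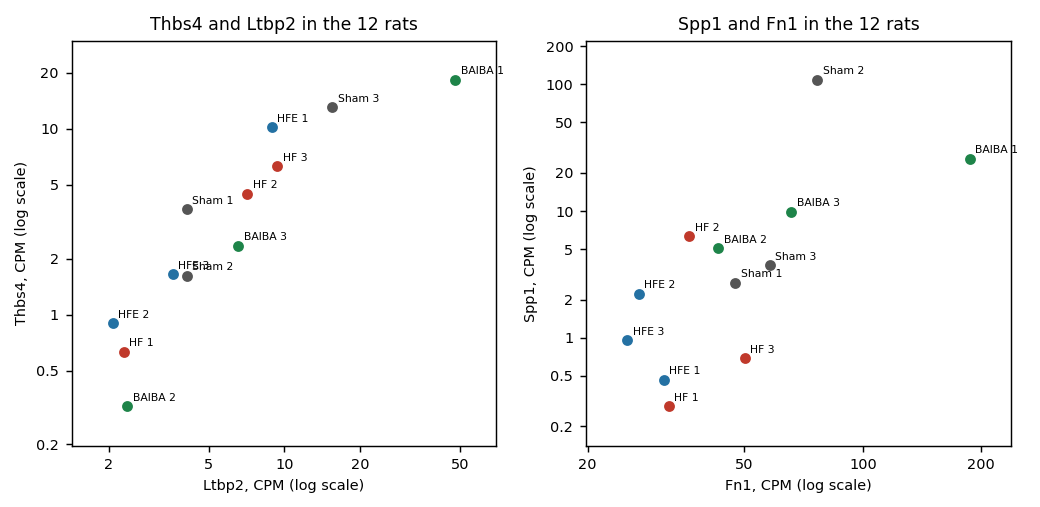
Left, Thbs4 against Ltbp2, and right, Spp1 against Fn1, in CPM on log axes, with 1 point per rat, coloured by group. Thbs4 and Ltbp2 rise together from BAIBA rat 2 to BAIBA rat 1 with rats of every group along the line, and in the right panel Sham rat 2 lies far above the other rats for Spp1.

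Markers of other cell types moved with BAIBA rat 1, in both directions. Macrophage markers (Cd68, Adgre1, Cd163, Mrc1, Csf1r, C1qa, Lyz2, Gpnmb and Trem2) summed to 815 FPKM there and to between 54.6 and 178 FPKM in the other 11 rats, and 7 of the 9 were highest in that rat. By group the macrophage sum ran from 118 to 178 FPKM in Sham, 81.5 to 111 in HF, 54.6 to 94.1 in HFE and 90.3 to 815 in BAIBA, and none of the 9 was at 0 in any rat. Lyz2, named after its values were seen, gave 686 FPKM of that sum and was at 758 CPM against 34.4 to 119 elsewhere. Markers of the heart's outer lining (Msln, Upk3b, Upk1b, Wt1 and Lrrn4) summed to 44.7 FPKM there and to between 6.96 and 20.7 in the others, and 4 of the 5 were highest there. By group this sum ran from 7.04 to 9.61 in Sham, 7.92 to 12.6 in HF, 6.96 to 8.58 in HFE and 9.03 to 44.7 in BAIBA. Between 1 and 4 of the 5 were at 0 counts in HF rats 2 and 3, in all 3 HFE rats and in BAIBA rat 2. The 3 endothelial markers were lower in BAIBA rat 1 than in every other rat, with Cdh5 at 126 CPM against 176 to 248, Kdr at 96.0 against 131 to 227 and Tie1 at 92.6 against 108 to 170. The pericyte marker Rgs5 (91.6 against 105 to 216) and the cardiomyocyte marker Actn2 (1278 against 1373 to 1796) were lowest there too, and these 5 were named after their values were seen. The smooth muscle and pericyte list did not move as a whole. Its marker Pdgfrb was highest in BAIBA rat 1 (101.0 against 77.1 to 100.9), and Myh11, Cnn1 and Kcnj8 lay within the range of the other rats. The cardiomyocyte markers other than Actn2 lay within that range too. In Sham rat 2 the macrophage marker Gpnmb, also named after its values were seen, was at 52.1 CPM, the highest of the 12. The part of these cells in the scar gene values was not tested. Over all 15617 genes, 11.9% were highest in BAIBA rat 1, against 8 of the 10 scar genes.

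**Figure D5:**
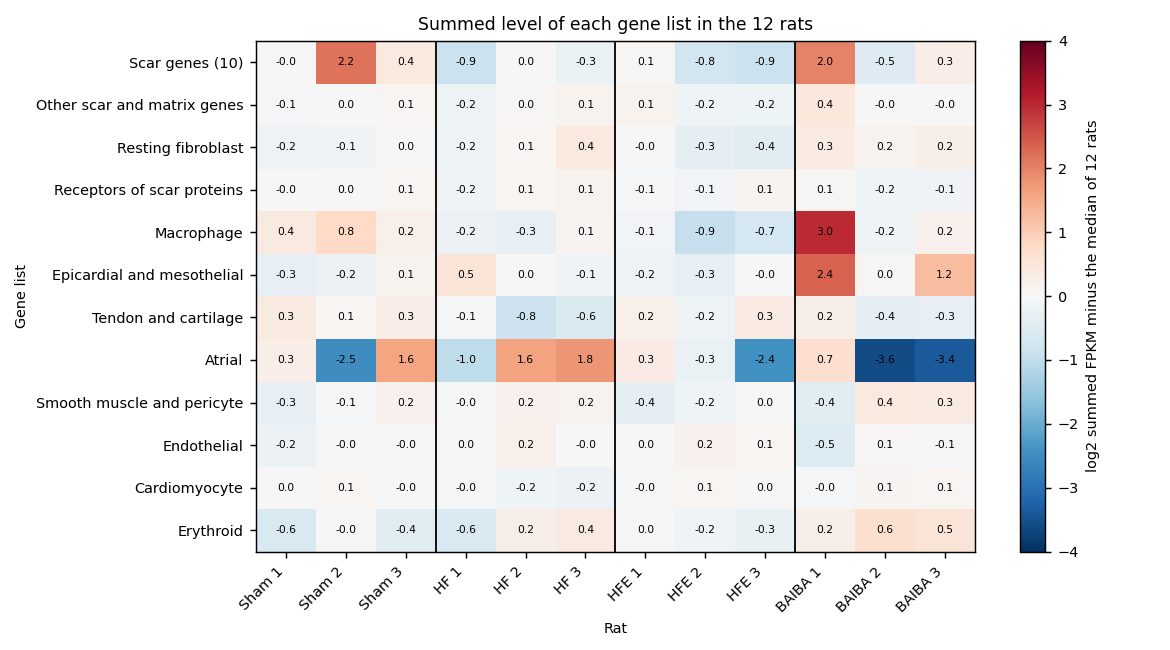
Summed FPKM of 12 gene lists in each rat as a log2 difference from the list's median over the 12 rats. In BAIBA rat 1 the scar, macrophage and outer-lining lists are high together, and the resting fibroblast list is above its median by less. Cardiomyocyte markers are near 0 and endothelial markers are low there, and in Sham rat 2 the scar list is high through Spp1.

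Other scar and matrix genes, a list of 51 with collagens, small proteoglycans, crosslinking enzymes and TGF-beta ligands, were highest in BAIBA rat 1 for 27 of 51, against 11.9% of all genes. Mfap4 in this list had no counts in any rat, and Mfap5 and Dcn are also in the resting fibroblast list. None was called in any of the 7 comparisons by edgeR. In HF against Sham, 1 was higher and 7 lower at an unadjusted p under 0.05 (2.47% and 3.53% of all genes), with Col1a1 and Col3a1, the main fibrillar collagens, at -0.56 ± 0.11 (SE; edgeR adjusted p = 0.709) and -0.42 ± 0.13 (adjusted p = 0.805). In HFE against Sham, 1 was higher and 11 lower (6.04% and 5.15% of all genes), with Tgfbi at -0.46 ± 0.10 (edgeR adjusted p = 0.210) and the ligand Tgfb3 at -0.53 ± 0.13 (adjusted p = 0.263). In BAIBA against HFE, 8 were higher and 0 lower (4.68% and 4.88% of all genes), with Col14a1 at 0.64 ± 0.14 (edgeR adjusted p = 0.176) and Plod2, a collagen lysyl hydroxylase, at 1.02 ± 0.27 (adjusted p = 0.267). Plod2 was at 38.1 CPM in BAIBA rat 1 and between 11.9 and 20.9 CPM elsewhere, and the fits of this list were not repeated without that rat. At that p, 2 were higher and 1 lower in HFE against HF (4.34% and 3.29% of all genes), and 2 and 0 in BAIBA against HF (2.81% and 2.73%). In BAIBA against Sham 5 were higher and 1 lower (4.13% and 3.28%), and in ligated hearts against Sham 0 and 4 (2.84% and 3.52%).

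Receptors of the members, 10 integrins and other surface proteins that bind them, were read in the same fits. None was called by edgeR in the 7 comparisons. Itgb5, an integrin subunit that binds periostin and osteopontin, was at -0.62 ± 0.13 in BAIBA against HFE (edgeR adjusted p = 0.176) and -0.57 ± 0.13 in BAIBA against Sham (adjusted p = 0.350). Itga5, the fibronectin receptor subunit, was at -0.66 ± 0.14 in BAIBA against HFE (edgeR adjusted p = 0.179), opposite in sign to Fn1 there, and at 0.45 ± 0.15 in HFE against Sham (adjusted p = 0.352). Cd44, an osteopontin receptor, was at -0.34 ± 0.12 in HF against Sham (edgeR adjusted p = 0.805) and at 0.43 ± 0.13 in HFE against HF (adjusted p = 0.627).

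Among 14204 genes with a symbol that are not members, the 5 whose log2 CPM was most like the scar score over the 12 rats were Fxyd2 (Pearson r = 0.94), Mfap5 (0.93), Dclk1 (0.92), Lbp (0.90) and S100a4 (0.90). Over the 11 rats without BAIBA rat 1 their r lay between 0.72 (S100a4 and Lbp) and 0.84 (Fxyd2 and Mfap5). The 3 least like it were Fip1l1 (-0.91), Unkl (-0.91) and Prkch (-0.87). Mfap5, a microfibril protein, is also in the resting fibroblast list and the list of other matrix genes. It was at 29.4 CPM in BAIBA rat 1 and between 6.99 and 15.1 CPM elsewhere. S100a4, a calcium-binding protein found in fibroblasts and leukocytes, was at 33.2 CPM there and between 8.02 and 17.6 CPM elsewhere. Being picked as extremes among many genes, these values are a description with no test.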

How the data were processed

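RNA of the left ventricular wall of 12 rats was sequenced as paired-end poly(A) libraries. Per the paper's methods, the authors trimmed reads and used HISAT2 for alignment, StringTie for added transcripts and featureCounts for counting. The labels give no batch. Versions, annotation and the strand setting are not given in the sources used here. The build in the submitters' processing notes is a mouse one, which the rat Ensembl identifiers contradict, so no coordinates of the files were used. The deposited counts are raw and whole, and the FPKM values, also deposited, scale them by gene length and library total. Further deposited tables repeated both without a difference.

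The tests used edgeR 4.0.16 (R 4.3.3) on these counts: the groups compared only (all 12 rats for ligated against Sham), TMM, filterByExpr with a minimum count of 10, robust quasi-likelihood fits and Benjamini-Hochberg adjustment over all genes tested. The SE of a log2 fold change is its size over the root of the F statistic. CPM used TMM factors over 12 rats. For the scar score, log2 CPM had a prior count of 2. All adjusted p-values are edgeR's unless DESeq2 is named. Each group had 3 rats.

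The members and lists were chosen with earlier results of these data known. All 10 members are named in each comparison. List genes were named where called, and otherwise up to 3 a list by lowest p, and the 5 most and 3 least like genes by Pearson r with the score. Myh7, from a list of wall stress genes of cardiomyocytes, was called by edgeR in 2 comparisons. It was at -1.17 ± 0.10 (SE; edgeR adjusted p = 0.00864) in BAIBA against Sham, where 0.0402% of all genes were called. In BAIBA against HFE it was at -2.08 ± 0.13 (edgeR adjusted p = 0.00237), where 0.0808% were called. Pecam1 was fixed in the endothelial list but no row was found by its symbol, so that list held 3 genes. On simulated counts with 200 genes changed 4-fold, 85.5% were recovered for HF against Sham (14727 genes) and 89.5% for ligated against Sham (14921 genes). There were 9 and 5 false calls. The changed genes were drawn only from genes above a minimum mean CPM. These shares are averages over such genes and do not hold for members with low counts or a wide spread between rats.

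Alternatives were DESeq2 1.42.0, RLE factors, library-size scaling, no filter, no fold limit, an unadjusted p, limma 3.58.1 on log2(FPKM + 1) and log2(FPKM + 0.1), the replicate number as a block, a fit of all 12 rats (or the 9 ligated rats as 1 group) and each rat left out. Rats that share a number in the labels are different animals. The deviations of same-numbered rats from their group means correlated at over 0.1 in every pair only for BAIBA against HFE (0.118 to 0.224). No 2 replicates were identical, with a chi-square per degree of freedom of 11.8 to 33.7.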

Additional observations from a re-analysis of the deposited data

How the results depend on the processing

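Of 119 recomputed counts of members called, 112 stayed at the value given. For HFE against Sham the count was 2 with DESeq2 (Tnc and Fn1; 0.459% of all genes), 1 with no filter (Tnc, adjusted p = 0.01989; 0.109%) and 2 at an unadjusted p with the fold limit kept (1.72%). It was 1 in HFE against HF at an unadjusted p (Tnc; 1.06%). In BAIBA against HFE it was 1 with DESeq2 (Spp1; 1.04%) and 2 at an unadjusted p (2.51%), and in ligated hearts against Sham 2 at an unadjusted p (1.05%). The cause was not tested. With the replicate block, 0 members were called in each comparison, and in BAIBA against HFE the calls over all genes were 32 with the block against 12 without it. Of 966 recomputed log2 fold changes of members, 84 had the other sign, 59 of them on leaving out 1 rat, and 0 of the 84 were called. Of 64 fitted values, 25 kept their sign throughout. In HF against Sham, the log2 fold changes with the other sign were with limma on log2(FPKM + 0.1) Comp 0.083, Lox -0.073 and with the replicate block Comp 0.0695, Lox -0.048. With each rat of HF against Sham left out in turn, the ranges were Comp -0.90 to 1.25, Fap -0.28 to 0.43, Lox -0.38 to 0.64, Ltbp2 -0.74 to 0.62, Thbs4 -1.26 to 0.52. Leave-one-out ranges for HFE against Sham were Comp -0.25 to 1.95, Ltbp2 -1.46 to 0.26, Thbs4 -2.25 to 0.67. In BAIBA against Sham, the log2 fold changes with the other sign were with limma on log2(FPKM + 1) Postn -0.15, Thbs4 -0.099 and with limma on log2(FPKM + 0.1) Postn -0.37, Spp1 0.062, Thbs4 -0.55 and with the replicate block Postn -0.25, Spp1 0.40, Thbs4 -0.57. With each rat of BAIBA against Sham left out in turn, the ranges were Comp -0.19 to 2.19, Fap -0.16 to 0.47, Fn1 -0.15 to 1.06, Lox -0.29 to 0.96, Ltbp2 -0.81 to 2.23, Postn -1.09 to 0.86, Spp1 -2.34 to 2.09, Thbs4 -2.17 to 1.41, Tnc -2.33 to 0.0696. In HFE against HF, the log2 fold changes with the other sign were with limma on log2(FPKM + 1) Thbs4 -0.017 and with limma on log2(FPKM + 0.1) Thbs4 -0.11 and with the replicate block Thbs4 -0.44. Leave-one-out ranges for HFE against HF were Lox -0.33 to 0.68, Ltbp2 -1.13 to 0.047, Postn -1.46 to 0.13, Spp1 -1.77 to 1.29, Thbs4 -1.57 to 0.73. In BAIBA against HF, the log2 fold changes with the other sign were with limma on log2(FPKM + 0.1) Tnc -0.16 and with the replicate block Tnc -0.37, Thbs4 -0.40. With each rat of BAIBA against HF left out in turn, the ranges were Fap -0.18 to 0.38, Lox -0.49 to 1.02, Ltbp2 -0.48 to 2.12, Postn -0.30 to 1.66, Thbs4 -1.49 to 1.47, Tnc -1.54 to 0.83. In BAIBA against HFE, the log2 fold changes with the other sign were with the replicate block Cthrc1 -0.027. Leave-one-out ranges for BAIBA against HFE were Comp -0.49 to 0.79, Cthrc1 -1.06 to 0.57, Lox -0.61 to 0.66, Ltbp2 -0.12 to 2.75, Thbs4 -1.65 to 2.47. In ligated against Sham, the log2 fold changes with the other sign were with limma on log2(FPKM + 0.1) Ltbp2 -0.11 and with the replicate block Ltbp2 -0.059 and with both BAIBA rat 1 and Sham rat 2 left out Cthrc1 -0.16, Fap -0.066, Ltbp2 -0.92, Comp -0.59. With each rat of ligated against Sham left out in turn, the ranges were Comp -0.35 to 1.80, Cthrc1 -0.061 to 0.63, Fap -0.063 to 0.57, Ltbp2 -0.60 to 1.03, Spp1 -4.24 to 0.082, Thbs4 -1.12 to 0.86. The ranges so far are those in which a sign changed. The other ranges, by comparison, were HF against Sham Fn1 -0.83 to -0.42, Postn -1.27 to -0.55, Spp1 -6.25 to -0.42, Tnc -1.01 to -0.26. For HFE against Sham the values were Fap 0.18 to 0.82, Fn1 -1.28 to -0.93, Lox 0.12 to 0.61, Postn -2.26 to -0.78, Spp1 -5.74 to -1.41, Tnc -3.02 to -2.26. They were, for HFE against HF Comp 0.16 to 0.92, Fap 0.17 to 0.73, Fn1 -0.64 to -0.30, Tnc -2.14 to -1.86. For BAIBA against HF the values were Comp 0.23 to 1.21, Fn1 0.47 to 1.68, Spp1 1.63 to 4.77. They were, for BAIBA against HFE Fap -0.41 to -0.23, Fn1 0.97 to 2.19, Postn 0.033 to 2.62, Spp1 2.62 to 4.26. For ligated against Sham the values were Fn1 -0.62 to -0.14, Lox 0.084 to 0.53, Postn -1.001 to -0.29, Tnc -1.96 to -0.82.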
